A study of Caenorhabditis elegans with 20 samples.

Results

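The C-type lectin genes of *Caenorhabditis elegans* were followed across 4 genotypes of whole adult worms. Members were all genes whose symbol in the array annotation starts *clec-*, with 1 probe set for each gene, the one with the highest mean over the 20 arrays among probe sets annotated to that gene alone. This gave 220 genes of the 17118 genes measured in this way. All 220 symbols were found again in the RefSeq gene table, which lists 264 *clec-* genes and classes 18 of the 220 as pseudogenes, so the family is covered in most but not all of its members.

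C-type lectins are proteins with a domain that in many animals binds sugars in a calcium-dependent way. In the worm the family is large, many of its members carry a signal for secretion, and many are made in the intestine, where a changing subset responds to bacteria in the gut. For most members neither a sugar ligand nor a function has been established. The worm's only receptor of the insulin and IGF-1 type is the product of *daf-2*, and lowered signalling from it lets the FOXO transcription factor encoded by *daf-16* enter the nucleus and change the output of many genes, those of defence against microbes among them.

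The study measured total RNA of whole animals on Affymetrix whole-genome arrays, 5 arrays for each genotype. All 4 genotypes carried the temperature-sensitive mutation *glp-4*(bn2). Worms with *daf-2*(e1370) and the deletion *daf-16*(mgDf50), spelled mgdf50 in the labels, are called e1370 without *daf-16* below, and worms with *daf-2*(e1370) and their own *daf-16* are called e1370 with *daf-16*. Worms with *daf-2*(m577) and the same deletion are called m577 without *daf-16*, and worms with *daf-2*(m577) alone are called m577 with *daf-16*. Both *daf-2* alleles reduce function, and *glp-4*(bn2) leaves few germ cells at the restrictive temperature. There was no group with wild-type *daf-2* or *glp-4*. Larvae hatched at 20 °C, grew at 15 °C and were moved to 25 °C at about the last larval stage, and adults aged 1 day were harvested, with worms from 8 plates making up a replicate. The labels call these biological replicates. They do not say whether they were grown at separate times, so p-values measure the spread between these samples.

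Levels are deposited values on the log2 scale, and differences are log2 differences with the standard error (SE) of a linear model over all 20 arrays (limma). A gene is called when its p-value, adjusted by Benjamini and Hochberg over all 22548 probe sets, is under 0.05. A difference for *daf-16* is the genotype without *daf-16* minus the genotype with it, so a positive value means a higher level when *daf-16* was missing. Levels of different genes come from different probes and were not ranked by test. RNA was taken from whole worms, so fewer cells of a type and less RNA per cell cannot be told apart.

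Array medians lay between 6.40 and 6.57. The 15 control probe sets for Bacillus genes, which match no worm gene, had values from 4.21 to 6.29 with a median of 4.57, and this range was taken as background. Of the 4 probe sets of *daf-16*, 2 were lower without *daf-16*, by 0.76 (adjusted p = 0.0174) and 0.69 (adjusted p = 0.0175) over both alleles, while the other two were not called, and the sources used here do not give which of them lie in the deleted part. Genes of oocytes and germ cells averaged 7.78 to 11.31 and major sperm protein genes 8.72 to 13.16 over the 20 arrays, so signal for germ line genes was present in these *glp-4* adults. Replicate 2 of e1370 without *daf-16* was least like its group, with a mean correlation of 0.842 to the other 4 arrays across probe sets. The 3 arrays with the lowest sperm gene level were replicate 3 of m577 with *daf-16*, replicate 5 of e1370 without *daf-16* and replicate 4 of e1370 with *daf-16*. Leaving these 3 arrays out moved no count of called members below by more than 1.5 times.

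Most members had low signal. In 124 of the 220 genes all 4 genotype means lay within the background range, in 42 some did, and in 54 none did. The corresponding shares were 56.4% of members and 37.9% of all 17118 genes with all 4 means in that range. The median level of the members was 5.94 (quartiles 5.39 and 6.61), against 6.64 (quartiles 5.59 and 8.17) for all genes. At the other end 16 members had a mean above 10, which is 7.27% of members against 7.68% of all genes. The family thus held a short list of bright genes and a long list near background.

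**Figure D1:**
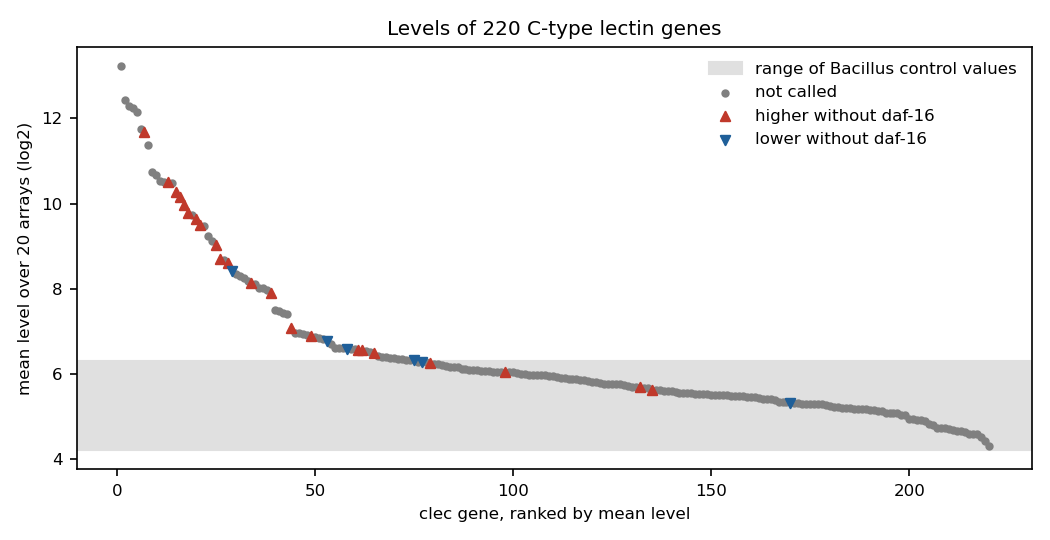
Mean level over 20 arrays (log2) of the 220 *clec-* genes, ranked from high to low, with the range of the Bacillus control values (4.21 to 6.29) in grey. Triangles mark genes called higher (22) or lower (6) without *daf-16* over both alleles, and most genes to the right of the ranking lie inside the grey range.

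The brightest member was *clec-63*, with a mean over all arrays of 13.23. Its levels were 13.42, 12.82, 13.46, 13.51 and 13.43 in e1370 without *daf-16* and 12.56, 12.96, 13.13, 12.99 and 12.38 in e1370 with *daf-16*. In m577 they were 13.26, 13.53, 13.38, 13.44 and 13.26 without *daf-16* and 13.31, 13.47, 13.35, 13.47 and 13.42 with it. The differences were small beside this level, 0.52 ± 0.14 in e1370, which was called (adjusted p = 0.0469), and -0.03 ± 0.14 in m577, which was not (adjusted p = 0.939). After it came *clec-50* (mean level 12.43), *clec-1* (12.29), *clec-85* (12.25), *clec-65* (12.16), *clec-87* (11.76), *clec-186* (11.67), *clec-150* (11.38), *clec-62* (10.74) and *clec-83* (10.66). Of these 10 bright genes *clec-186* alone was called over both alleles. Of all genes 6.64% were called, and of those above the median level 9.78%. At these shares 10 genes do not show that bright members differ from other genes. *clec-1* differed by -0.03 ± 0.14 (adjusted p = 0.942), *clec-65* by -0.08 ± 0.14 (adjusted p = 0.83) and *clec-83* by 0.28 ± 0.15 (adjusted p = 0.428). *clec-62* differed by -0.53 ± 0.25 (adjusted p = 0.312) and *clec-150* by 0.78 ± 0.24 (adjusted p = 0.0635). *clec-85* is used as a readout of the PMK-1 p38 pathway of intestinal immunity, and its difference was -0.41 ± 0.21 (adjusted p = 0.357).

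The first comparison asked which lectin genes differed in level with the loss of *daf-16* when insulin signalling was low, and averaged the differences of both alleles. A small group of lectin genes moved, in both directions. Without *daf-16*, 22 members were higher and 6 lower, and 192 were not called. The called members were 12.7% of the family, against 6.64% of all genes called in this comparison. By direction, 10% of members were higher, against 2.87% of all genes, and 2.73% were lower, against 3.77% of all genes. The difference between family and background was not tested. At least a 2-fold difference was reached by 13 of the 22 and by 4 of the 6. The median difference of all 220 members was -0.071, beside -0.014 for all genes.

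*clec-61* had the largest difference of the family. It lies beside *clec-60* on chromosome II, and both are known from work on infection with Gram-positive bacteria. Its levels were 6.38, 6.16, 6.34, 6.58 and 6.23 in e1370 without *daf-16*, against 10.26, 9.72, 12.59, 11.36 and 9.42 in e1370 with *daf-16*. In m577 they were 6.12, 6.40, 6.59, 6.65 and 7.01 without *daf-16* and 9.18, 10.76, 11.45, 9.33 and 9.77 with it. Every array with *daf-16* was above every array without it in both alleles, and the arrays without *daf-16* lay around the upper end of the background range. The difference over both alleles was -3.94 ± 0.35 (adjusted p = 5.51e-07), a 15.3-fold lower level without *daf-16*. Its probe set carries the suffix _s_at, which marks probes shared with other transcripts. This suffix is carried by 7 of the 28 called members, among them *clec-17*, *clec-145*, *clec-55*, *clec-49*, *clec-5* and *clec-41* below, so signal from related genes cannot be told apart. Its neighbour *clec-60* was not called, with differences of -0.59 ± 0.47 in e1370 (adjusted p = 0.98) and 1.14 ± 0.47 in m577 (adjusted p = 0.293). Its arrays with *daf-16* in e1370 spread from 5.57 to 8.39.

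*clec-76* had levels of 5.66, 5.82, 5.29, 5.55 and 5.54 in e1370 without *daf-16* and 9.16, 7.22, 8.42, 6.88 and 7.42 with it. In m577 these were 5.53, 5.55, 5.37, 5.90 and 5.91 without *daf-16* and 7.61, 8.79, 7.79, 7.88 and 8.25 with it. All 10 arrays without *daf-16* lay within the background range and all 10 with it lay above it. The difference was -2.33 ± 0.23 over both alleles (adjusted p = 2.2e-06), with -2.25 ± 0.33 in e1370 and -2.42 ± 0.33 in m577, sizes that background limits in both. *clec-82*, which on chromosome IV lies in the same run of neighbours as *clec-85*, had levels of 5.63, 5.49, 5.08, 5.20 and 4.86 in e1370 without *daf-16* and 7.50, 7.07, 6.99, 6.21 and 6.25 with it. Its levels in m577 were 5.26, 6.06, 5.96, 6.28 and 5.99 without *daf-16* and 7.32, 7.47, 7.04, 7.15 and 6.80 with it. The groups did not overlap in either allele, and the difference was -1.40 ± 0.17 (adjusted p = 2.35e-05). All arrays of *clec-82* without *daf-16* lay within the background range, which limits this size. *clec-61*, *clec-76* and *clec-82* were the 3 members lower without *daf-16* whose arrays overlapped in neither allele.

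*clec-17* was lower by another pattern. Its levels were 5.76, 6.06, 5.81, 5.73 and 5.96 in e1370 without *daf-16* and 8.14, 8.02, 9.45, 7.22 and 7.08 in e1370 with *daf-16*, with no overlap. In m577 the levels were 5.46, 5.70, 5.84, 6.56 and 6.34 without *daf-16* and 6.53, 6.78, 6.34, 6.23 and 6.67 with it, and the arrays overlapped. The difference was -2.12 ± 0.33 in e1370 (adjusted p = 0.000429) and -0.53 ± 0.33 in m577 (adjusted p = 0.495). All arrays of e1370 without *daf-16* and some of m577 without it lay within the background range, which limits the size of both differences. The test of the difference between these differences gave -1.59 ± 0.46, with an adjusted p of 0.391. The remaining members called lower were *clec-145* (-0.90 ± 0.18, adjusted p = 0.00378) and *clec-55* (-0.56 ± 0.14, adjusted p = 0.021), and all 4 genotype means of *clec-55* lay within the background range.

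Among members that were higher without *daf-16*, *clec-174* and *clec-265* led. *clec-174* had levels of 10.11, 9.21, 12.40, 12.32 and 12.75 in e1370 without *daf-16*, against 8.25, 8.17, 8.94, 8.16 and 7.44 in e1370 with *daf-16*. In m577 its levels were 10.29, 11.37, 10.77, 11.88 and 10.34 without *daf-16* and 7.80, 8.91, 9.12, 8.85 and 8.64 with it. The groups did not overlap in either allele, and the difference was 2.72 ± 0.40 (adjusted p = 0.000179), or 6.57-fold. Its probe set carries the suffix _x_at, which the array's maker gives to sets with probes that can match other sequences, so the same limit holds.

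*clec-265* was at 11.81, 10.44, 11.83, 12.05 and 10.01 in e1370 without *daf-16* and at 7.98, 8.51, 7.08, 5.97 and 6.59 in e1370 with *daf-16*. In m577 it was at 11.35, 12.06, 11.28, 11.56 and 10.85 without *daf-16* and at 9.65, 10.49, 8.80, 10.70 and 10.41 with it. Here the genotype that stood apart was e1370 with *daf-16*, which lay below all the others without overlap. The difference was 4.00 ± 0.50 in e1370 (adjusted p = 4.04e-05) and 1.41 ± 0.50 in m577, which was not called (adjusted p = 0.201) although the arrays did not overlap. The difference between these differences was 2.59 ± 0.70 (adjusted p = 0.298).

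*clec-4* had levels of 9.43, 8.63, 9.68, 10.29 and 8.12 in e1370 without *daf-16* and 6.58, 7.18, 6.47, 6.74 and 5.93 with it. In m577 they were 8.18, 9.86, 8.74, 9.14 and 8.05 without *daf-16* and 7.28, 6.89, 6.66, 6.92 and 7.05 with it. The groups did not overlap in either allele, and *clec-4* was called in both, at 2.65 ± 0.38 in e1370 (adjusted p = 0.000175) and 1.84 ± 0.38 in m577 (adjusted p = 0.0128). *clec-66*, one of a run of bright neighbours on chromosome II with *clec-62*, *clec-63* and *clec-65*, was at 11.75, 11.59, 11.97, 12.35 and 11.08 in e1370 without *daf-16* and 9.82, 10.23, 8.99, 7.89 and 7.98 with it. Its levels in m577 were 11.01, 11.97, 11.15, 11.54 and 10.84 without *daf-16* and 9.80, 10.38, 9.29, 10.29 and 10.07 with it. Neither allele showed overlap, and the difference was 2.05 ± 0.28 over both alleles (adjusted p = 8.12e-05), whereas *clec-62*, *clec-63* and *clec-65* from the same run were not called.

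*clec-67*, which like *clec-85* is used as a readout of the PMK-1 pathway, had levels of 10.58, 9.83, 10.74, 11.29 and 8.96 in e1370 without *daf-16* and 8.35, 9.20, 7.21, 6.75 and 7.39 with it. In m577 its levels were 10.41, 11.17, 10.44, 10.39 and 10.12 without *daf-16* and 8.68, 10.85, 9.00, 10.82 and 10.77 with it. Arrays of the genotypes compared overlapped in both alleles. The difference was 2.50 ± 0.53 in e1370 (adjusted p = 0.0072) and 0.48 ± 0.53 in m577 (adjusted p = 0.702). *clec-51* was at 9.44, 10.54, 8.88, 9.97 and 9.08 in e1370 without *daf-16* and at 7.95, 7.40, 6.75, 7.01 and 7.86 with it. Arrays of m577 gave 10.27, 9.87, 9.86, 9.80 and 10.40 without *daf-16* and 8.92, 9.72, 7.84, 9.54 and 9.43 with it. The groups did not overlap in either allele, and over both the difference was 1.57 ± 0.25 (adjusted p = 0.000433).

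The rest of the 10 largest positive differences over both alleles were *clec-49* (1.36 ± 0.36), *clec-5* (1.24 ± 0.27), *clec-10* (1.15 ± 0.21) and *clec-48* (1.13 ± 0.30), with adjusted p-values of 0.0279, 0.00643, 0.00128 and 0.0278. *clec-49* is known for a part in resistance to Serratia. The other 12 members called higher differed by 0.38 to 1.12. 3 of them had no overlap in either allele, *clec-74* (1.05 ± 0.11), *clec-210* (0.98 ± 0.15) and *clec-3* (0.67 ± 0.11). In all, 8 members were higher and 3 lower without *daf-16* with no overlap in either allele, 5% of the family, against 1.92% of all genes, 0.806% higher and 1.12% lower. Of the 28 called members, 13 had at least 1 genotype mean within the background range, where background limits the size of a difference. None of the 18 pseudogenes was called, beside 6.64% of all genes, a share at which so few genes do not show that pseudogenes differ. Among the 54 members with a mean above the median level of all genes, 31.5% were called, against 9.78% of all genes above it.

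**Figure D2:**
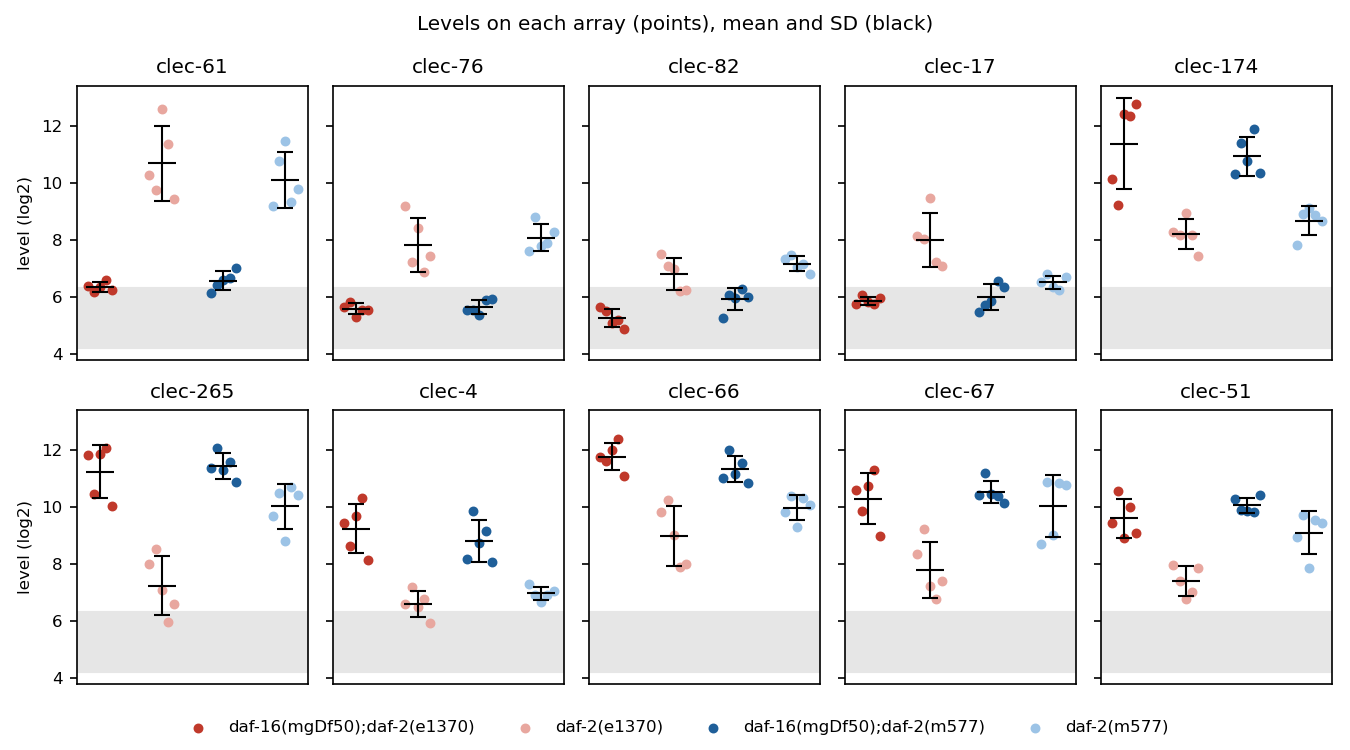
Levels (log2) on each of the 5 arrays per genotype for 4 members lower and 6 members higher without *daf-16*, with the mean and SD of each genotype in black and the background range (4.21 to 6.29) in grey. *clec-61*, *clec-76*, *clec-82* and *clec-17* are near or inside the grey range on the arrays without *daf-16*. *clec-265*, *clec-67* and *clec-51* are lowest in e1370 with *daf-16*.

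Levels on each array are given next for the called members *clec-210*, *clec-186* and *clec-41*. *clec-210* was at 6.10, 6.41, 6.21, 6.69 and 7.01 in e1370 without *daf-16* and at 5.39, 5.45, 5.55, 5.71 and 5.43 with it. In m577 it was at 7.82, 6.44, 6.63, 6.98 and 7.02 without *daf-16* and at 5.75, 5.94, 6.10, 6.22 and 6.00 with it. The difference was 0.98 ± 0.21 in e1370 and 0.98 ± 0.21 in m577. All 10 arrays with *daf-16* lay within the background range, so these sizes cannot be compared between the alleles.

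*clec-186* was at 12.16, 11.24, 12.33, 12.54 and 12.25 in e1370 without *daf-16* and at 10.36, 10.71, 11.48, 10.87 and 9.89 with it. Arrays of m577 gave 11.85, 12.32, 11.98, 12.28 and 12.00 without *daf-16* and 11.56, 12.03, 11.70, 11.89 and 11.97 with it. Its difference was 0.85 ± 0.18 over both alleles (adjusted p = 0.00522), and e1370 with *daf-16* had the lowest mean. *clec-41* was at 9.43, 8.72, 9.93, 10.24 and 9.13 in e1370 without *daf-16* and at 8.21, 8.71, 8.93, 7.20 and 6.72 with it. In m577 it was at 8.92, 9.58, 9.10, 8.87 and 8.78 without *daf-16* and at 7.41, 9.36, 8.06, 8.07 and 8.80 with it. Its arrays overlapped in both alleles, and the difference was 1.12 ± 0.30 (adjusted p = 0.0274).

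The count of 28 called members lay between 23 and 31 without any 1 array, and was 46, with 38 higher and 8 lower, with array quality weights, which let noisy arrays count less. It was 19, with 15 higher and 4 lower, with the RNA integrity measure described below as a covariate.

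The second question was whether the *daf-16* difference held in each allele taken alone. In e1370, 21 members were higher and 4 lower without *daf-16*, 11.4% of the family, against 4.81% of all genes. In m577, 4 were higher and 4 lower, 3.64% of the family, against 1.88% of all genes. Of all genes 2.16% were higher and 2.66% lower in e1370, and 0.672% were higher and 1.21% lower in m577. Both alleles shared 7 called members with the same direction, which is 7 of the 25 called in e1370 and 7 of the 8 called in m577. The share of all genes called in both alleles was not counted, so this overlap is not read as a trait of the family. The 7 were *clec-61*, *clec-76*, *clec-82*, *clec-174*, *clec-4*, *clec-74* and *clec-210*. The call of *clec-174* in m577 was lost under 16 of the 32 other settings run, with an adjusted p of up to 0.276, and that of *clec-76* under none. The other 5 were lost under 1 to 3 of the 32. The differences in e1370 and in m577 come from separate arrays, but their SE comes from the same estimate of the spread over all arrays. Calls in both alleles are therefore not independent, since a gene with a small spread is more easily called in each. The eighth call in m577 was *clec-58* (-0.37 ± 0.09, adjusted p = 0.033), a dim neighbour of *clec-60* and *clec-61* whose 4 genotype means lay within the background range.

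Besides the genes above, the 10 largest positive differences in e1370 included *clec-97* (1.76 ± 0.38), *clec-54* (1.54 ± 0.35), *clec-41* (1.54 ± 0.42) and *clec-173* (1.50 ± 0.33). Their adjusted p-values were 0.0081, 0.0127, 0.0443 and 0.0102. In m577 the same genes differed by 0.39 ± 0.38, 0.16 ± 0.35, 0.71 ± 0.42 and -0.19 ± 0.33, and none of them was called there. *clec-41* has been studied in infection with Bacillus thuringiensis. In each of the 21 members higher without *daf-16* in e1370, e1370 with *daf-16* had the lowest mean of the 4 genotypes. These 21 were picked for a low level in that genotype, so this count is largely set by the choice. Among all 220 members, which were not picked in this way, e1370 with *daf-16* had the lowest mean in 104. In 124 of the 220 all 4 means lay within the background range. The share of all genes with this pattern was not counted, so the 104 are not read as a trait of the family.

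That pattern alone does not show that the alleles differ. The test of the difference between the *daf-16* differences called none of the 220 members (limma), against 0.193% of all genes. At an unadjusted p under 0.05 it gave 24 members, 10.9% of the family against 5.4% of all genes. The e1370 difference minus the m577 difference was positive in 22 of the 24, and the share of all genes with that sign was not counted. Its median was 0.209 over all members, beside 0.022 for all genes. Below the median level of all genes these medians were 0.19 for members and 0.08 for all genes, and above it 0.36 and -0.11. A positive value can also come from a more negative difference in m577, as in *clec-72* (0.18 ± 0.11 in e1370 and -0.32 ± 0.11 in m577). With array quality weights, 18 members were called, all with a positive value, and 1 was called with sperm and oocyte marker levels as covariates. No other setting called a member. The weights gave more called members in every comparison. The share of all genes called under them was not counted, so the 18 are not read as a trait of the family.

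The count in e1370 was 15 when only these genotypes were fitted. In m577 it was 62 with array quality weights, 5 without replicate 2 of m577 with *daf-16*, and 2 with the RNA integrity measure as a covariate. That measure, how far 3' probes of 3 housekeeping controls (ubiquitin, GAPDH and actin) exceeded their 5' probes on average, was 1.87 ± 0.25 in m577 without *daf-16* and 1.33 ± 0.16 in m577 with *daf-16*, and 1.47 ± 0.11 in e1370 without *daf-16* and 1.37 ± 0.19 in e1370 with *daf-16* (SD, n = 5 each). Beyond the fit with this measure, its part in the m577 differences was not tested.

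**Figure D3:**
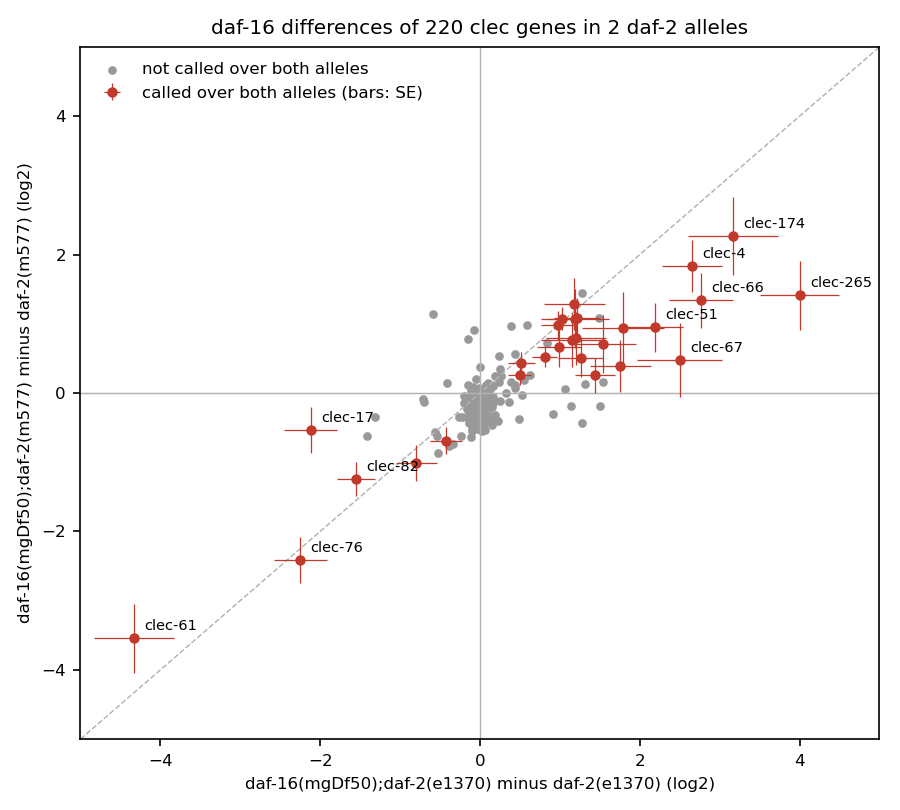
Difference between genotypes without and with *daf-16* (log2) for the 220 *clec-* genes, in e1370 on the horizontal axis and in m577 on the vertical axis, with SE bars for the 28 members called over both alleles. Equal differences fall on the dashed line. *clec-61*, *clec-76* and *clec-82* lie near it, and *clec-265*, *clec-67* and *clec-17* lie off it.

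The third comparison set the alleles against each other. Both alleles lower the function of the same receptor. With *daf-16* present 1 member was higher and 11 were lower in e1370 than in m577, 5.45% of the family, against 1.43% of all genes, of which 0.794% were higher and 0.631% lower. These tests share the arrays of e1370 with *daf-16* with the tests above, and 8 of the 12 members were also called for *daf-16* in e1370. The largest difference was in *clec-265* (-2.78 ± 0.50, adjusted p = 0.00809), followed by *clec-67* (-2.25 ± 0.53, adjusted p = 0.0435) and *clec-51* (-1.70 ± 0.36, adjusted p = 0.0227), whose values on each array are given above.

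*clec-205* followed, at 6.43, 6.53, 7.06, 6.78 and 6.34 in e1370 with *daf-16* and 8.19, 8.13, 8.16, 7.92 and 7.76 in m577 with *daf-16*, with no overlap and a difference of -1.40 ± 0.24 (adjusted p = 0.00473). The bright *clec-50* was at 12.11, 12.16, 11.65, 10.24 and 11.34 in e1370 with *daf-16* and 12.87, 12.85, 12.69, 12.66 and 12.88 in m577 with *daf-16*, again without overlap, a difference of -1.29 ± 0.25 (adjusted p = 0.0159). *clec-186* differed by -1.17 ± 0.25 (adjusted p = 0.0283). The single member higher in e1370 was *clec-17* (1.47 ± 0.33, adjusted p = 0.0324). Of the remaining 5 called members, *clec-63* differed by -0.60 ± 0.14 at a high level, and *clec-58*, *clec-72*, *clec-24* and *clec-69* were called with both means within the background range.

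Without *daf-16*, no member was called between e1370 and m577 (limma), and no gene of the 17118 was, a share of 0%. At an unadjusted p under 0.05 there were 9 members, 4.09% of the family against 3.34% of all genes, and with array quality weights 1 member was called. *clec-265* differed there by -0.19 ± 0.50 (adjusted p = 1) and *clec-67* by -0.23 ± 0.53 (adjusted p = 1). A call with *daf-16* and none without it does not show that these differ, and the test of that difference is the test of the difference between the *daf-16* differences given above.

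The count of 12 rested on few arrays and lay between 4 and 18 without any 1 array. It was 18 without replicate 2 of e1370 without *daf-16*, 4 without replicate 2, 4 or 5 of m577 with *daf-16*, 7 without replicate 1 of that genotype, and 6 and 7 without replicates 4 and 5 of e1370 with *daf-16*. It was 2 when only these genotypes were fitted, 24 with sperm and oocyte marker levels as covariates and 39 with array quality weights.

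Along the chromosomes the family is clustered, and this was examined by gene order alone. Taking *clec-* genes with at most 2 other genes between them as a run, 172 of the 264 genes lay in 50 runs of 2 or more, the largest of 15 genes on chromosome V. Of the 28 members called over both alleles, 22 were among the 142 members in runs and 6 among the 78 outside runs. Of all genes 6.64% were called, and a difference between members in and outside runs was not tested. A single called member was found in 23 of the runs and single genes, and 1 run held more than 1.

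This run, on chromosome IV, holds 13 *clec-* genes from *clec-67* to *clec-79*, 11 of them members. Without *daf-16* 4 of the 11 were higher and 1 was lower. The higher ones were *clec-67*, *clec-174*, *clec-74* and *clec-71*, and the lower one was *clec-76*. *clec-74* had levels of 7.12, 7.21, 7.07, 7.83 and 7.55 in e1370 without *daf-16* and 6.21, 6.76, 6.50, 6.20 and 5.97 with it. In m577 it was at 7.60, 7.27, 7.24, 7.41 and 7.75 without *daf-16* and 6.47, 6.35, 6.39, 6.42 and 6.25 with it, with no overlap in either allele (adjusted p = 5.24e-06). *clec-71* differed by 0.38 ± 0.10 (adjusted p = 0.0307). The other members of the run were not called, with *clec-75* at -0.10 ± 0.06, *clec-72* at -0.07 ± 0.08, *clec-70* at 0.13 ± 0.08, *clec-69* at 0.11 ± 0.07, *clec-73* at 0.79 ± 0.31 and *clec-79* at 0.50 ± 0.28. The 15-gene run on chromosome V had 11 members, of which *clec-31* alone was called (0.48 ± 0.12, adjusted p = 0.016).

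**Figure D4:**
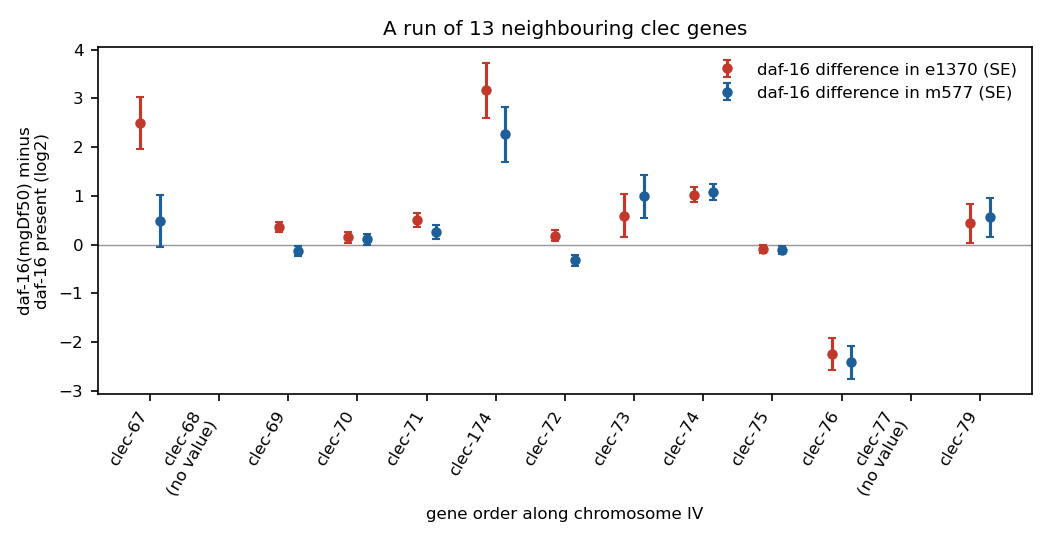
Difference between genotypes without and with *daf-16* (log2, with SE) in e1370 and m577 for the 13 neighbouring *clec-* genes of chromosome IV in their order, with no value for *clec-68* and *clec-77*. *clec-174* and *clec-74* are above 0 in both alleles, and *clec-76* is below 0 in both, at -2.25 in e1370 and -2.42 in m577.

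A list of 16 *clec-* genes named in work on bacterial infection or on the PMK-1 pathway was examined as a group. Without *daf-16*, 6 were higher and 2 lower over both alleles, with a median difference of 0.33 beside -0.01 for all genes, of which 6.64% were called. The higher ones were *clec-4*, *clec-66*, *clec-67*, *clec-49*, *clec-41* and *clec-71*, and the lower ones *clec-61* and *clec-82*. In e1370 5 were higher and 2 lower, where 4.81% of all genes were called, and in m577 1 was higher and 2 lower, where 1.88% were. Besides *clec-60*, *clec-63*, *clec-65* and *clec-85* above, the members not called were *clec-39* (-0.14 ± 0.09), which is known together with *clec-49* from work on Serratia and whose mean level was 4.67, *clec-42* (0.38 ± 0.12, adjusted p = 0.0765), *clec-70* and *clec-86* (1.36 ± 0.51, adjusted p = 0.158).

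The other genes of intestinal immunity were read the same way. Over both alleles 6.64% of all genes were called, 2.87% higher and 3.77% lower. Of 6 measured genes of the PMK-1 pathway, its adaptor, kinases, phosphatase and transcription factors, none was called over both alleles (limma), with a median difference of 0.14. In e1370 the largest differences among them were in *sek-1* (-1.04 ± 0.34, adjusted p = 0.113) and *tir-1* (0.57 ± 0.22, adjusted p = 0.233), neither of them called. Of 8 regulators of intestinal immune genes, *elt-2*, *elt-7*, *pqm-1*, *hlh-30*, *zip-2*, *cebp-1*, *bar-1* and *egl-5*, none was called either, with a median of 0.02. At the share of all genes called, sets of 6 and 8 genes do not show that these genes were unchanged. Galectins, another family of sugar-binding proteins, had 1 of 12 members higher, *lec-10* (1.44 ± 0.30, adjusted p = 0.00535), and 1 lower, *lec-4* (-1.26 ± 0.21, adjusted p = 0.000594). Of 47 lysozyme, saposin-like and antimicrobial peptide genes 4 were higher and 10 lower without *daf-16*, with a median of -0.12. The largest were *abf-2*, a defensin-like peptide (-2.86 ± 0.38, adjusted p = 5.45e-05), *ilys-5*, an invertebrate-type lysozyme (2.68 ± 0.21, adjusted p = 8.13e-08), *spp-13*, a saposin-like protein (-2.49 ± 0.22, adjusted p = 4.33e-07) and *abf-1* (-1.36 ± 0.33, adjusted p = 0.0162). The value of *ilys-5* averages unequal differences, 5.30 ± 0.29 in e1370 and 0.07 ± 0.29 in m577 (adjusted p = 0.938), and the test of the difference between them was called (adjusted p = 1.62e-06). In m577 *abf-1* was not called (-0.63 ± 0.47, adjusted p = 0.568). Nor was *abf-2* (-2.10 ± 0.53, adjusted p = 0.0532), although its arrays did not overlap there.

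Markers of tissues were read beside the lectins. Of 9 measured intestinal markers 6 were higher without *daf-16* and 1 was lower, among them *pept-1*, a peptide transporter (2.95 ± 0.31, adjusted p = 3.33e-06), *nhx-2*, a sodium-proton exchanger (2.48 ± 0.29, adjusted p = 1.61e-05), *ifb-2*, an intermediate filament protein (1.78 ± 0.40, adjusted p = 0.00899), and in the other direction the esterase *ges-1* (-1.88 ± 0.23, adjusted p = 2.73e-05). Their mean level was 10.13 ± 0.64 in e1370 without *daf-16* and 8.83 ± 0.43 in e1370 with *daf-16*, and 10.48 ± 0.54 in m577 without *daf-16* and 9.97 ± 0.45 in m577 with *daf-16* (SD, n = 5 each). Over the arrays it ranged from 9.40 to 10.89 in e1370 without *daf-16* and from 8.12 to 9.16 in e1370 with *daf-16*. In m577 it ranged from 9.84 to 11.00 without *daf-16* and from 9.21 to 10.34 with it. As for *clec-265*, *clec-67* and *clec-51*, this mean was lowest in e1370 with *daf-16*, though *ges-1* and *cpr-1* were lowest in e1370 without *daf-16*. None of the hypodermal (6), muscle (6) and pharyngeal (5) markers was called over both alleles, and 1 of 7 neuronal markers, *rab-3*, was (-0.38 ± 0.09, adjusted p = 0.0106). Of all genes 6.64% were called, a share at which such small sets do not show that these tissues were unchanged. The part of the intestinal markers in the lectin differences was not tested.

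Within a genotype the members varied by a pooled SD with a median of 0.33, from 0.07 to 1.33. It was above 1 in 6 members, of which *clec-88*, *clec-47*, *clec-91*, *clec-86* and *clec-87* had the highest values. These genes, apart from *clec-86* and *clec-87*, were chosen after their values were seen. *clec-87* and *clec-88* encode chondroitin proteoglycans, proteins that carry chondroitin sugar chains. Replicates 1 to 5 of e1370 without *daf-16* had *clec-87* levels of 11.34, 10.63, 13.21, 11.70 and 13.58, beside mean levels of the oocyte and germ cell markers of 9.46, 7.78, 11.31, 9.39 and 10.78. In e1370 with *daf-16* the *clec-87* levels were 10.83, 11.46, 12.18, 13.30 and 13.07 beside marker levels of 7.90, 8.86, 9.84, 10.98 and 10.52. In m577 without *daf-16* they were 12.32, 10.93, 11.94, 11.83 and 12.18 beside 10.09, 9.14, 9.85, 9.68 and 9.53, and in m577 with *daf-16* 9.29, 10.50, 13.16, 10.89 and 10.82 beside 7.97, 8.58, 11.08, 9.13 and 9.25. In each genotype the array with the lowest marker level also had the lowest *clec-87* level. For *clec-88* the same held except in e1370 with *daf-16*. There its lowest level (8.96) was on replicate 2 and the lowest marker level (7.90) on replicate 1. On the same arrays *clec-88* ranged from 7.94 to 12.43 and *clec-91* from 7.07 to 12.39. The part of these markers in the spread was not tested.

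*clec-86*, a gene known from work on infection, was at 9.71, 11.94, 8.47, 9.55 and 8.24 on replicates 1 to 5 of e1370 without *daf-16* and at 9.26, 10.47, 7.71, 6.98 and 7.11 on those of e1370 with *daf-16*. In m577 it was at 10.76, 10.58, 10.46, 10.95 and 10.96 without *daf-16* and 10.17, 9.99, 7.25, 9.49 and 9.54 with it. In both genotypes with *daf-16* its lowest level was on the array with the highest marker level, and in both genotypes without *daf-16* it was not. Its arrays ranged from 6.98 to 11.94 in all, and those of *clec-47* from 6.38 to 12.30. None of these 5 genes was called over both alleles. Their adjusted p-values were 0.732 for *clec-87*, 0.842 for *clec-88*, 0.606 for *clec-91*, 0.158 for *clec-86* and 0.248 for *clec-47*. The count of called members over both alleles was 25 without the 3 arrays of lowest sperm gene level, and without them it was 19 in e1370, 7 in m577 and 9 between the alleles with *daf-16*. It was 29 over both alleles with sperm and oocyte marker levels as covariates, against 28 with all arrays and no covariate.

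**Figure D5:**
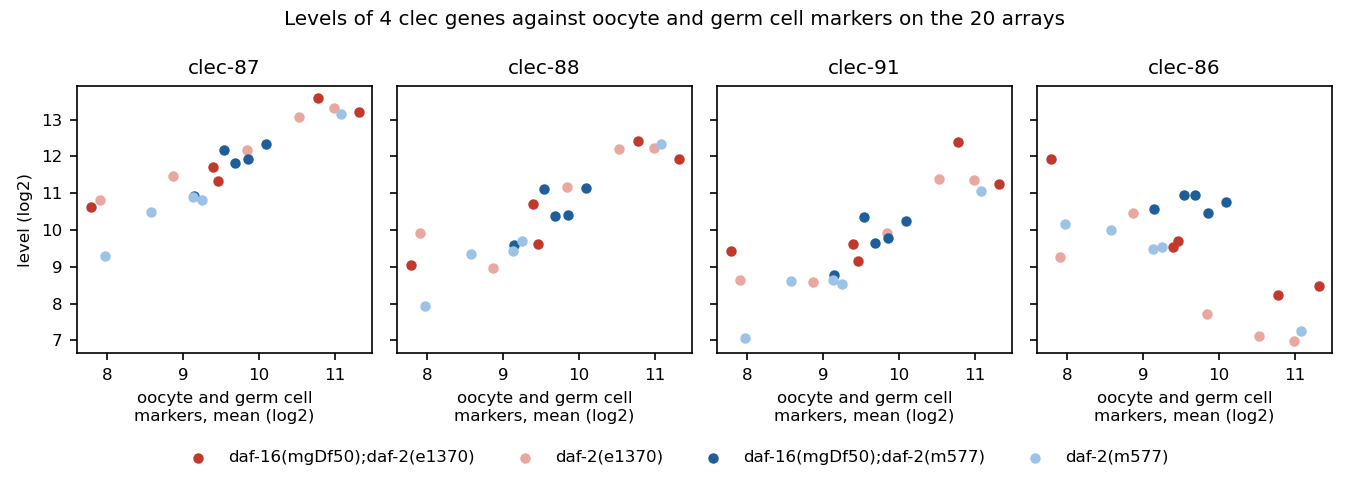
Levels (log2) of *clec-87*, *clec-88*, *clec-91* and *clec-86* on the 20 arrays against the mean level of 10 oocyte and germ cell markers on the same array, with a colour for each genotype. *clec-87* spans 9.29 to 13.58, and in each genotype its lowest point is at the lowest marker level. For *clec-88* this does not hold in e1370 with *daf-16*. *clec-86* spans 6.98 to 11.94.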

How the data were processed

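The authors deposited 1 table with a value for each probe set on each of 20 Affymetrix C. elegans whole-genome arrays, 5 for each genotype. Per the labels, scans were converted with MAS 5.0 and all arrays summarised together with RMA (Affymetrix package for R, version 1.4.14). RMA summaries compress differences near background. The deposited values were taken as log2 from their range, since the labels do not name the scale. Since the sources used here do not give the array's genome build, RefSeq gene order (assembly WBcel235) served only for names and neighbours.

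Groups came from the sample labels. After 77 control probe sets were left out, 22548 probe sets were fitted in R 4.3.3 by limma 3.58.1, with a mean for each genotype, all 20 arrays, no covariate and moderation by eBayes, with p-values 2-sided and adjusted by Benjamini and Hochberg over all of them. The number of arrays limits the precision. The steps were tested on simulated data. The text names the 10 members with the highest levels, the called members with the largest differences in each comparison (up to 10 in each direction), and the genes of the lists. 22 probe sets annotated to several genes were kept out of the family. The members, gene lists and tests were chosen with earlier results of these data known. Alternatives were centring, a filter on dim probe sets, an intensity trend, array weights, averaged probe sets, separate fits, blocks by replicate number, and leaving out each array. Marker and RNA covariates and sets of arrays left out were chosen after seeing the data.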

Additional observations from a re-analysis of the deposited data

Results flagged for a closer look

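Among 45 named members, each in 4 genotypes, 13 of 180 sets of 5 arrays held an array whose gap to the nearest other array exceeded 0.71 of the whole range, and chance marks about 1 in 20 such sets. Replicate 2 of e1370 without *daf-16* accounted for 4 of them. It was at 12.70 for *clec-150* (nearest other array 11.38), at 5.60 for *clec-42* (6.07), at 5.26 for *clec-55* (4.85) and at 12.82 for *clec-63* (13.42). Replicate 3 of m577 with *daf-16*, which had the lowest sperm gene level of all arrays (8.72), accounted for 4 more. It was at 8.84 for *clec-48* (nearest 10.18), at 7.92 for *clec-49* (9.77), at 7.64 for *clec-5* (8.77) and at 7.25 for *clec-86* (9.49), each the lowest of its genotype. The other 5 lay on separate arrays. *clec-71* was at 7.25 on replicate 4 of e1370 without *daf-16* (nearest 6.75), and *clec-145* at 7.91 on replicate 1 of e1370 with *daf-16* (6.65). *clec-42* was at 5.99 on replicate 4 of e1370 with *daf-16* (5.77). *clec-150* was at 12.39 on replicate 5 of m577 without *daf-16* (11.98), and *clec-58* at 5.96 on replicate 4 of that genotype (5.87).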

How the results depend on the processing

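Counts are of called members, in the order both alleles, e1370, m577, difference between the *daf-16* differences, e1370 against m577 with *daf-16*, and the same without it, and were 28, 25, 8, 0, 12 and 0 as reported. With array quality weights (0.16 to 6.39) they were 46 over both alleles, 62 in m577, 18 for the difference between differences, 39 and 1 between the alleles. With only the genotypes compared in the fit they were 15 in e1370 and 2 between the alleles with *daf-16*. With sperm and oocyte marker levels as covariates they were 1 for the difference between differences and 24 between the alleles with *daf-16*, and with the 3' minus 5' measure as a covariate 2 in m577. Leaving out 1 array gave 23 to 31, 20 to 29, 5 to 10, 0 to 0, 4 to 18 and 0 to 0. The cause was not tested, and the share of all genes called under these settings was not counted. The replicate block by the number in the titles gave 28, 23, 8, 0, 8 and 0. Arrays sharing that number correlated in their deviations from the genotype means by -0.538 to 0.815, with 14 of 30 pairs over 0.1, and those sharing the number in the alternative sample names by -0.604 to 0.765, with 9 of 20, so the numbers were not taken to pair the arrays. The block by the second number gave 12, 13, 3 and 0 where it moved, over both alleles, in e1370, in m577 and between the alleles with *daf-16*. Of 45 calls of named members, 19 held under all settings run, 26 were lost under at least 1 and none changed direction. Levels near background limit what can be seen in the 124 members with all 4 genotype means there.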

Other observations

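The 22 probe sets annotated to more than 1 gene with a *clec-* symbol among them were read apart from the family. Without *daf-16*, 6 of them were higher and 1 was lower over both alleles. The lower one is shared by *clec-13* and *clec-15*, neighbours on chromosome I, and differed by -2.13 ± 0.36 (adjusted p = 0.000822), with means of 5.22 ± 0.32 in e1370 without *daf-16*, 7.73 ± 1.50 in e1370 with *daf-16*, 5.22 ± 0.26 in m577 without *daf-16* and 6.96 ± 0.70 in m577 with *daf-16* (SD, n = 5 each). Of the higher ones, the set shared by *clec-69* and *clec-67* differed by 1.61 ± 0.39 (adjusted p = 0.0149), while the set of *clec-69* alone was not called and that of *clec-67* alone was, at 1.49 ± 0.38 (adjusted p = 0.0197). The set shared by *clec-49* and *clec-48* differed by 1.08 ± 0.25, and that shared by *clec-205* and *clec-204* by 0.94 ± 0.22. A shared set does not by itself show which of its genes gave the signal.

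15 members had several probe sets of their own, 31 in all. The differences of a gene's probe sets had the same sign in 10 of the 15. In *clec-55*, *clec-57* and *clec-8* 1 probe set was called over both alleles and another was not.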
